A study of Mus musculus with 24 samples.

Results

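The irradiation effect on the RNA recovered by m6A immunoprecipitation was described here, over 12 m6A IP libraries out of the 24 libraries of the series. All IP libraries were taken, and the 6 libraries of irradiated tumours (IR) were set against the 6 of unirradiated tumours (Ctrl). CD11b+ myeloid cells had been isolated from MC38 tumours, a colon carcinoma line transplanted into C57BL/6J mice. WT mice carried Ythdf2 fl/fl without Cre. Ythdf2-cKO mice were Lyz Cre+;Ythdf2 fl/fl, in which Cre is expressed from the Lyz2 locus and acts across myeloid cells. IR stands for 20 Gy given once to the tumour, with cells collected 3 days later. Both genotypes had 3 Ctrl and 3 IR libraries of the IP, each from the cells of several pooled mice. The study calls these replicates technical in one place and biological in another, so SEs and p-values measure the spread between libraries. Of 54446 gene identifiers, 16038 reached 10 counts in at least 3 IP libraries and were tested.

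N6-methyladenosine (m6A) is the most common internal modification of mammalian mRNA. It is written mainly by the METTL3 and METTL14 methyltransferase complex, often in a GGAC context and near stop codons, removed by FTO and ALKBH5, and read by YTH proteins such as YTHDF2, which promotes the decay of marked transcripts. In MeRIP-seq, fragmented RNA is bound by an antibody against m6A and sequenced next to the Input, RNA not put through the immunoprecipitation. An IP count therefore depends both on how much of a transcript was present and on how much of it was bound. Ionizing radiation breaks DNA, and cells respond by activating the transcription factor p53, holding the cell cycle and repairing the breaks.

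The IP libraries held 70.6M to 73.7M gene counts (M, mega) in Ctrl and 68.8M to 86.4M in IR. Lyz2, the locus that carries the Cre, stood at 16820 to 17690 CPM (gene counts relative to the TMM-scaled library size, the scale of all IP levels given) in WT Ctrl and at 93.28 to 98.29 CPM in cKO Ctrl. In the IR libraries this order was the other way round, with 97.3 to 100.1 CPM in those labelled WT IR and 20980 to 21220 CPM in those labelled cKO IR. For this reason the effect was taken as the mean of both IR groups minus the mean of both Ctrl groups, which is the same whichever IR group is WT, and the IR groups are named by label only. Ythdf2 itself, counted over the whole gene and not the deleted part alone, ranged from 190.5 to 228.4 CPM in Ctrl and from 165.7 to 210.7 CPM in IR, so the treatments overlapped. By the test used below, Ythdf2 was called lower in IR, at a log2 change of -0.16, a call that did not hold in every setting. Itgam, which encodes the CD11b used to isolate the cells, was at 273.4 CPM or more in every IP library.

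Irradiation moved a large number of transcripts in the IP libraries, mostly by little. By edgeR's quasi-likelihood test with Benjamini-Hochberg adjustment, 4796 genes were lower after IR (29.9% of 16038) and 5002 were higher (31.2%). The median size of the called changes was 0.33 on the log2 scale, and 399 lower and 393 higher genes reached a fold of 2. Among the called genes, 48.7% also kept all 6 IR libraries on one side of all 6 Ctrl libraries, 2568 of them lower (16.0% of the genes tested) and 2200 higher (13.7%). In the Input libraries of the same 4 groups, 3884 of 16090 genes were lower (24.1%) and 3621 were higher (22.5%). Across the 14953 genes tested in both, the IP and the Input change correlated with an r of 0.30 (Pearson) and a rho of 0.17 (Spearman), a description over genes of the same libraries. Of the genes lower in IP, 32.7% were also lower in Input and 21.6% were higher, and of the genes higher in IP, 32.7% were lower in Input and 30.9% were higher. The change of IP over Input, fitted as 1 contrast over all 24 libraries, was negative in 4016 of 17373 genes (23.1%) and positive in 4389 (25.3%). CPM are relative values of bulk cells, and fewer cells of a type cannot be told apart from less RNA per cell.

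Genes of the cell cycle fell together. All 32 genes of a mitosis list were lower in the IP after IR, with a median log2 change of -1.13 against a median of 0.009 over all genes, and all 32 had no overlap between IR and Ctrl libraries. Ccnb2 (ENSMUSG00000032218; GRCm38 chr9:70407692-70421547), a cyclin that drives entry into mitosis, had its lowest, median and highest IP level at 66.36, 70.31 and 77.16 CPM in Ctrl and at 18.63, 24.71 and 30.57 CPM in IR. Every IR library was below every Ctrl library, and the log2 change was -1.56 (SE 0.03, adjusted p 3.6e-30). Birc5, which encodes survivin of the chromosomal passenger complex, went from 128, 147.9 and 164.3 CPM to 41.4, 49.94 and 63.35 CPM, a log2 change of -1.54 (SE 0.03, adjusted p 2.6e-30). Cdc20, the activator of the anaphase-promoting complex, fell by 1.51 and Cdc25c, a phosphatase that activates the mitotic kinase CDK1, fell by 1.38. The smallest fall on the list was that of Bub1b, a spindle checkpoint kinase, at -0.78. In the Input the same 32 of 32 genes were lower, with a median of -1.36. The IP over Input change was positive in 16 of the 32 genes and negative in 3.

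Replication genes followed. Of 36 DNA replication genes, 35 were lower in the IP, 32 of them without overlap, with a median log2 change of -0.71. Tk1, the thymidine kinase of the nucleotide salvage pathway, had an IP level of 149.6, 161.7 and 174.5 CPM (lowest, median, highest) in Ctrl and 61.71, 65.38 and 67.88 CPM in IR. The groups were far apart, at a log2 change of -1.31 (SE 0.02, adjusted p 2.5e-32). Gins1 of the replicative helicase (-1.04), Rfc4 of the clamp loader (-1.03) and Prim1, the primase subunit (-1.02), were lower by similar amounts. The exception was Rfc1, the large subunit of the clamp loader, which rose by 0.08. In the Input 33 of the 36 genes were lower and 1 was higher, with a median of -0.60.

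DNA break repair and checkpoint genes were mostly lower as well, not higher. Of 30 genes, 23 were lower in the IP, 1 was higher and 6 were not called, with a median log2 change of -0.38. H2afx, the histone variant phosphorylated at DNA breaks, had 159.1, 174 and 198 CPM in Ctrl and 72.61, 80.83 and 84.15 CPM in IR, with no overlap and a log2 change of -1.13 (SE 0.03, adjusted p 1.6e-28). Xrcc3, a protein of homologous recombination, fell by 1.11. Trp53, which encodes p53, fell by 0.23. Prkdc, the kinase of end joining, rose by 0.25, while Atm (0.01), the kinase that signals breaks, was not called. In the Input 18 of the 30 genes were lower and none was higher at the adjusted threshold.

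Replication-dependent histone genes, which are short and are expressed mainly in S phase, were lower in 16 of 20 cases and higher in 3, with a median IP change of -1.09. Hist1h2ab had 6.139, 6.439 and 7.106 CPM in Ctrl and 2.093, 2.243 and 3.137 CPM in IR, a log2 change of -1.46 (SE 0.09, adjusted p 1.3e-16). The 3 members that rose were Hist1h1c (0.35), Hist1h2bc (0.67) and Hist2h3c2 (0.97). Sequences of these copies are very similar, so counts of single members are uncertain. The Input median of the list was -0.21, with 7 genes lower and 3 higher, and the IP over Input change was negative in 10 of 20 genes and positive in none at the adjusted threshold.

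Targets of p53 mostly rose. Of 30 targets, 26 were higher in the IP after IR, 1 was lower and 3 were not called, with a median log2 change of 0.47, and 17 of the 26 had no overlap. Cdkn1a, the p21 inhibitor of cyclin-dependent kinases, had 128, 140.2 and 149.5 CPM in Ctrl and 265.8, 273.7 and 287.2 CPM in IR. All IR libraries were above all Ctrl libraries, with a log2 change of 0.98. Phlda3, which restrains AKT signalling, went from 38.75, 39.63 and 44.79 CPM to 99.45, 104.7 and 109.4 CPM, a log2 change of 1.37 (SE 0.03, adjusted p 5.7e-29). Trp53inp1, an inducer of cell death (1.45), Eda2r, a death receptor of the TNF family (1.55), and Zmat3, an RNA-binding p53 target (1.13), rose by more than 2-fold. Mdm2, the ubiquitin ligase that degrades p53, rose by 0.65, and the proapoptotic genes Bbc3, Pmaip1 and Bax rose by 0.66, 0.22 and 0.11. Gtse1, a target that is itself expressed in G2 and S phase, fell by 0.22, and Fas (0.02), Ddb2 (-0.17) and Tigar (-0.03) were not called. In the Input 24 of the 30 targets were higher and 2 were lower, with a median of 0.40.

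**Figure D1:**
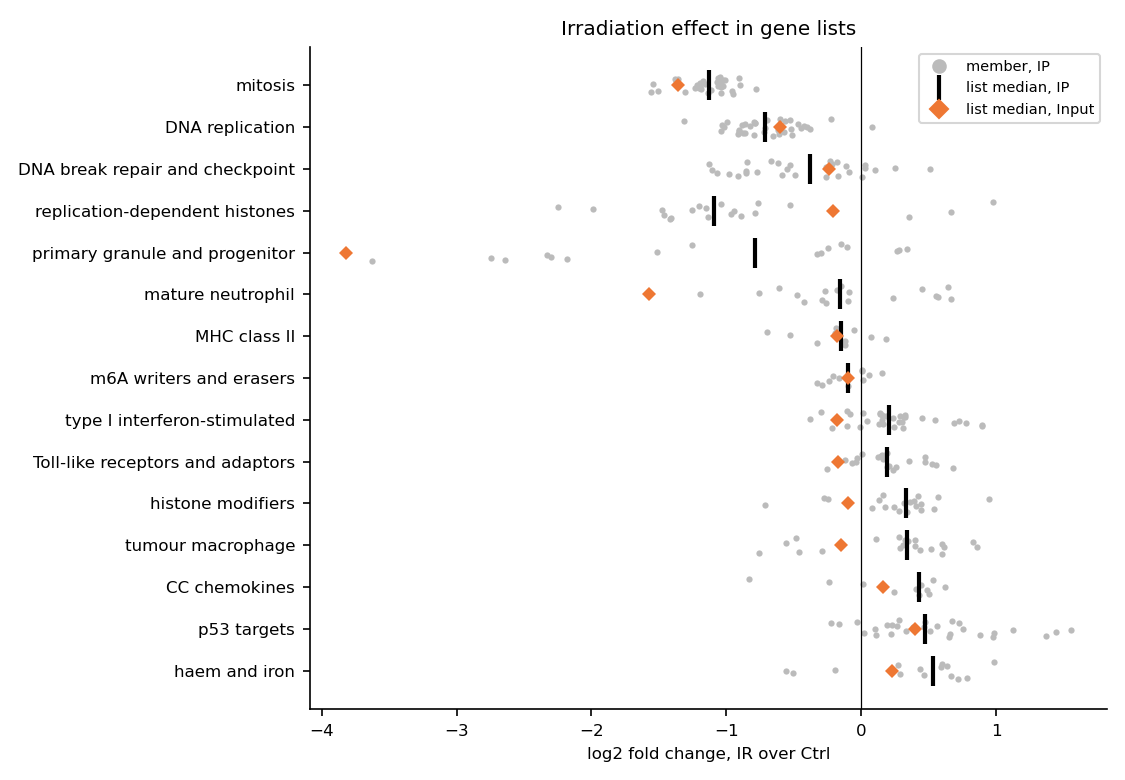
Log2 fold change, IR over Ctrl, of the members of 15 gene lists in the m6A IP (grey points, 1 per gene), with the list median in the IP (black bar) and in the Input (orange diamond). The mitosis members all lie below 0, the median of the primary granule list is -0.79 in the IP and -3.82 in the Input, where 5 of its 16 members were at 0 in at least 1 IR library, and the medians of the histone modifier and Toll-like receptor lists are above 0 in the IP and below 0 in the Input.

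Apart from the lists, the 12 largest rises and 12 largest falls were named among genes with no overlap and at least 5 CPM. The largest rise was that of Ahnak2 (ENSMUSG00000072812; GRCm38 chr12:112772194-112802657), which encodes a very large scaffold protein. Its IP level was 10.07, 17.24 and 24.24 CPM in Ctrl and 48.59, 83.41 and 119.4 CPM in IR, a log2 change of 2.27 (SE 0.03, adjusted p 1.3e-34). The groups within a treatment stood apart, since the libraries labelled WT IR held 116.4 to 119.4 CPM and those labelled cKO IR 48.59 to 50.47 CPM. In the Input Ahnak2 rose by 0.37. Mmp13, a collagenase, had 2.464, 3.018 and 3.546 CPM in Ctrl and 9.239, 12.86 and 15.87 CPM in IR (log2 change 2.08, SE 0.07, adjusted p 1.2e-23). Its Input change was 0.57. Ak1, an adenylate kinase, rose by 2.1 in the IP and by 1.96 in the Input, and its IP over Input change of 0.13 was not called. Ppbp, a platelet chemokine, rose by 1.94, Myrf, a membrane-bound transcription factor, by 1.77, and Colec12, a scavenger receptor, by 1.61. Kcnn3, a potassium channel subunit, rose by 1.38 in the IP and fell by 0.74 in the Input. The list of rises also held Ablim1 (1.51), Gfra1 (1.47), Tanc2 (1.31) and the p53 targets Trp53inp1 and Phlda3.

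The 12 largest falls were led by Mpo, the myeloperoxidase of primary granules. Its IP level was 4.784, 5.808 and 6.941 CPM in Ctrl and 0.5644, 0.8088 and 1.778 CPM in IR, a log2 change of -2.64 (SE 0.15, adjusted p 1.6e-17). Genes of the cell cycle made up most of the others. Ska1 (-1.72) and Spc24 (-1.49) act at the kinetochore, Cdkn3 (-1.57) is a phosphatase of cyclin-dependent kinases, Pimreg (-1.52) is a mitotic regulator, and Ccnb2, Birc5 and Cdc20 were described above. Mxd3 (-1.61), a partner of MAX, Sapcd2 (-1.89) and the noncoding RNA Lockd (-1.69) were also among them. Ms4a6c, a membrane protein of monocytes, was different: it had 5.678, 8.155 and 9.209 CPM in the Ctrl IP and 2.022, 2.622 and 2.787 CPM in the IR IP (log2 change -1.60, SE 0.09, adjusted p 5.6e-18). In the Input its change was -0.07 and was not called.

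**Figure D2:**
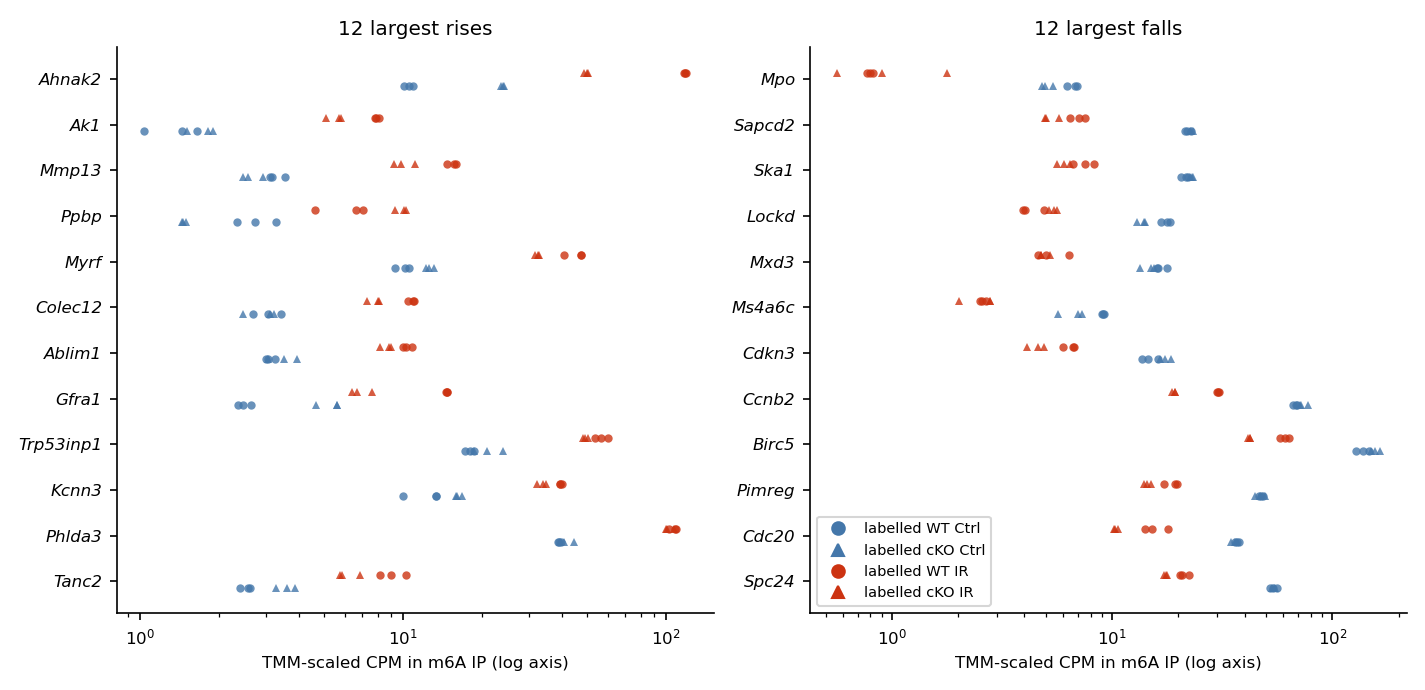
Level of the 12 largest rises (left) and 12 largest falls (right) in each of the 12 m6A IP libraries, as TMM-scaled CPM on a log axis. Points are single libraries, colour gives the treatment and shape the labelled genotype. For each gene no IR library overlaps a Ctrl library, and in Ahnak2 the 3 libraries labelled WT IR lie above the 3 labelled cKO IR.

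Myeloid genes taken as markers of CD11b+ cells were mostly higher in the IP and mostly lower in the Input. Of 9 genes, 8 were higher in the IP and 1 was lower, with a median of 0.31. Among them is Lyz2, whose level followed the labelled genotype in Ctrl and went against it in IR. Itgam had 273.4, 307.9 and 344.9 CPM in Ctrl and 535.9, 579.8 and 598.6 CPM in IR, and every IR library exceeded every Ctrl library (log2 change 0.90, SE 0.02, adjusted p 6.4e-30). Its Input change was -0.07. Itgb2, the beta subunit that pairs with CD11b, rose by 0.61 in the IP, Tyrobp, the DAP12 adaptor, by 0.34 and Csf1r, the receptor of macrophage colony-stimulating factor, by 0.31. Spi1, which encodes the myeloid transcription factor PU.1, fell by 0.04. Across the 9 genes the Input was lower in 7 and higher in 2, with a median of -0.11, and the IP over Input change was positive in 8 and negative in 1.

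Macrophage genes of the tumour were mostly higher. Of 20 tested genes, 14 were higher in the IP, 5 were lower and 1 was not called, with a median of 0.34, and 6 of the 14 had no overlap. Gpnmb, a glycoprotein of lipid-laden macrophages, had 306.7, 396.7 and 490.2 CPM in Ctrl and 515.6, 737.5 and 953.8 CPM in IR (log2 change 0.86, SE 0.01, adjusted p 1.9e-31). Spp1, or osteopontin, rose by 0.62, Mertk, a receptor for the uptake of dead cells, by 0.60, and Adgre1, which encodes F4/80, by 0.60. The complement genes C1qa, C1qb and C1qc fell by 0.76, 0.46 and 0.29, and Cd163, the haemoglobin scavenger receptor, by 0.56. In the Input the list was split, with 10 of 21 genes lower and 8 higher.

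Haem and iron genes were mostly higher in the IP and in the Input. In the IP 11 of 14 genes were higher and 3 were lower, with a median of 0.53, 10 of the 11 without overlap. Slc7a11, the cystine importer of the glutathione pathway, had 90.01, 101.5 and 108.4 CPM in Ctrl and 192.9, 194.7 and 218.7 CPM in IR (log2 change 0.99, SE 0.03, adjusted p 6.4e-27). Slc40a1, the iron exporter ferroportin, rose by 0.78, and Hmox1, the enzyme that degrades haem, rose by 0.72. Tfrc, the transferrin receptor, fell by 0.51. In the Input 10 of 15 genes were higher and 2 were lower, with a median of 0.23.

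In granulocyte genes the IP and the Input differed. In the list of primary granule and progenitor genes, 12 of 16 were lower in the IP and 2 were higher, with a median of -0.79. With 1 term for treatment 8 were lower, and without the library labelled cKO Ctrl replicate 2, which left 15 genes past the filter, the median was -0.30. The IP median was nearer 0 likewise without the libraries labelled WT Ctrl replicate 2 (-0.31) or cKO Ctrl replicate 3 (-0.34), and with a filter of 50 counts (-0.31). In the Input 11 were lower and 3 were higher. Elane, neutrophil elastase, had 2.069, 3.499 and 3.868 CPM in the Ctrl IP and 0.1444, 0.2579 and 0.3893 CPM in the IR IP (log2 change -3.63, SE 0.19, adjusted p 4.2e-18). Ctsg, cathepsin G, went from 2.296, 2.755 and 3.403 CPM to 0.1101, 0.4258 and 0.6563 CPM. In the IR Inputs, Elane, Mpo, Ctsg, Ms4a3 and Prss57 were at 0 in some libraries, so no Input fold is given for them. The other 11 members had a median of -0.92 in the Input and -0.24 in the IP. In the list of mature neutrophil genes, 9 of 18 were lower in the IP, 6 were higher and 3 were not called, with a median of -0.16. Over all genes tested in the IP, 29.9% were lower and 31.2% higher. In the Input 16 of the 18 were lower and none was higher at the adjusted threshold, with a median of -1.57. The list varied widely among Ctrl Inputs, summing to 1922 to 4320 CPM there and to 955.8 to 1003 CPM in the IR Inputs. The IP over Input change was positive in 16 of the 18 genes. Ngp, a granule protein, had 71.58, 79.68 and 85.85 CPM in the Ctrl IP and 45.97, 46.48 and 49.52 CPM in the IR IP, a change of -0.75 in the IP and of -4.23 in the Input. Csf3r, the receptor of the growth factor G-CSF, had 22.24, 25.43 and 28.43 CPM in Ctrl and 32.01, 41.04 and 49.36 CPM in IR, a rise of 0.66 (SE 0.04, adjusted p 2.2e-17) in the IP, while it fell by 0.61 in the Input.

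Inflammatory monocyte genes were mixed. Of 14 genes, 6 were lower in the IP, 4 were higher and 4 were not called, with a median of -0.11. The shares over all genes tested in the IP were 29.9% lower and 31.2% higher. In the Input 10 of the 14 were lower and 1 was higher. Ly6c2, which encodes the Ly6C antigen of inflammatory monocytes, had 62.63, 65.52 and 69.89 CPM in Ctrl and 41.78, 48.88 and 58.81 CPM in IR (log2 change -0.44, SE 0.03, adjusted p 3.0e-15). Its Input change, -0.42, was of the same size. Fn1, fibronectin, went the other way, with 377.4, 482.2 and 587.1 CPM in the Ctrl IP and 928.4, 1054 and 1194 CPM in the IR IP (log2 change 1.16, SE 0.02, adjusted p 1.3e-34), while its Input change was -0.41. Of 12 dendritic cell genes, 8 were higher and 2 were lower in the IP, with a median of 0.37. Itgax, which encodes CD11c, rose by 0.85 in the IP and changed by -0.06 in the Input.

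Innate sensing and interferon genes also differed between the IP and the Input. Of 32 type I interferon-stimulated genes, 17 were higher in the IP, 2 were lower and 13 were not called, with a median of 0.21. In the Input 16 of them were lower and 4 were higher, with a median of -0.18, and the IP over Input change was positive in 24. Mx1, an antiviral GTPase, had 23.83, 31.07 and 36.99 CPM in Ctrl and 48.69, 55.12 and 65.83 CPM in IR (log2 change 0.90, SE 0.03, adjusted p 1.0e-22). It also rose in the Input, by 0.53. Ddx58, which encodes the RNA sensor RIG-I, rose by 0.45 in the IP and fell by 0.36 in the Input. Of 21 Toll-like receptor and adaptor genes, 14 were higher in the IP and 2 were lower, with a median of 0.19, against 2 higher and 15 lower in the Input. Tlr13, a receptor for bacterial ribosomal RNA, had 277.2, 297.8 and 312.7 CPM in Ctrl and 400.6, 409.1 and 429 CPM in IR, a rise of 0.48 (SE 0.02, adjusted p 1.3e-22). Tlr2, which senses lipoproteins, fell by 0.25.

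CC chemokines, which attract leukocytes, were higher in 8 of 11 cases and lower in 2, with a median of 0.43. Ccl6 was abundant in the IP, with 8417, 9173 and 9366 CPM in Ctrl and 11820, 12040 and 12510 CPM in IR (log2 change 0.41, SE 0.02, adjusted p 7.3e-22). Ccl2 and Ccl7, ligands of the monocyte receptor CCR2, rose by 0.43 and 0.62. Ccl24 fell by 0.83 and Ccl17 by 0.24. In the Input 6 of 11 were higher and 2 were lower.

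Histone modifier genes, whose transcripts are long, were higher in 17 of 20 cases in the IP and lower in 3, with a median of 0.33, and 15 of the 17 had no overlap. In the Input 12 were lower and 2 were higher, with a median of -0.10. Kdm5b, a demethylase of histone H3, had 16.33, 18 and 20 CPM in Ctrl and 29.28, 34.62 and 41.57 CPM in IR (log2 change 0.94, SE 0.04, adjusted p 2.8e-19), and its Input change of 0.06 was not called. Kmt2d, a methyltransferase of histone H3, rose by 0.54 in the IP and fell by 0.17 in the Input. The 3 members that fell were Ezh2 (-0.71), the methyltransferase of the Polycomb complex, and the deacetylases Hdac1 (-0.25) and Hdac2 (-0.28).

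Transcripts of the m6A machinery themselves moved in both directions. Of 11 writers and erasers, 6 were lower in the IP, 2 were higher and 3 were not called, with a median of -0.10. Mettl14 had 30.01, 31.46 and 32.54 CPM in Ctrl and 24.94, 25.74 and 27.13 CPM in IR, a log2 change of -0.29 (SE 0.04, adjusted p 1.4e-08) without overlap. Mettl16 fell by 0.32, Wtap by 0.24 and Mettl3 by 0.10, while the erasers Fto and Alkbh5, each at 0.01, were not called. Among 10 readers, 4 were lower and 4 were higher, against 29.9% lower and 31.2% higher of all genes tested. Igf2bp2 rose by 0.68, and Hnrnpa2b1, a nuclear RNA-binding protein, fell by 0.57, from 1354, 1391 and 1424 CPM to 896.4, 932.6 and 978.1 CPM.

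The study singled out Metrnl, Smpdl3b, Tnfaip8l2 and Socs3 among inhibitors of NF-kB signalling, a choice made on this series and therefore no independent evidence of direction. It also followed Metrnl and Smpdl3b by qPCR, YTHDF2 binding and RNA decay in myeloid cells. Its claim concerns a fall in WT after IR that the cKO reversed. The values here average both genotypes in IP RNA and do not address that claim. Smpdl3b, a lipid-modifying enzyme that restrains Toll-like receptor signalling, had 99.8, 105.9 and 107.5 CPM in Ctrl and 70.13, 72.72 and 80 CPM in IR (log2 change -0.51, SE 0.03, adjusted p 3.4e-19). In the IP Metrnl rose by 0.20, Tnfaip8l2 by 0.11 and Socs3 by 0.10. A list of 5 genes named by the study, these among them, went mostly the other way in the Input. There 4 were lower and none was higher at the adjusted threshold, with a median of -0.13. In a wider list of 26 negative regulators of NF-kB, 13 were higher in the IP, 6 were lower and 7 were not called, with a median of 0.05. In the Input 12 of the 26 were lower and 5 were higher, with a median of -0.12. Of 10 NF-kB and IKK subunits, 8 were higher in the IP and none was lower at the adjusted threshold, with a median of 0.14. They were led by Ikbkg, the regulatory subunit NEMO, at 0.55. In the Input 6 of the 10 were higher and 3 were lower, with a median of 0.10.

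Marker lists of other cell types differed in their IP level. Of 12 T cell markers, 8 did not reach the count filter, among them Cd3d, Cd3e and Cd3g, and the list summed to 1.89 to 3.164 CPM in Ctrl and 2.804 to 4.823 CPM in IR. NK cell markers summed to 4.124 to 8.913 and 2.756 to 7.904 CPM, and Ncr1 was not tested. B cell markers summed to 5.503 to 6.739 and 2.752 to 3.541 CPM, with 1 of 4 tested markers lower (Ighm, -1.17), while Ms4a1 was not tested. Mast cell and basophil markers summed to 7.544 to 8.798 and 5.346 to 6.545 CPM with 3 of 5 lower, and fibroblast markers to 9.518 to 11.14 and 7.118 to 9.942 CPM with 1 lower and 2 higher of 4. Erythroid markers summed to 12.46 to 19.43 and 12.33 to 21.86 CPM with none of 3 called, and platelet markers to 64.13 to 74.77 and 79.43 to 99.04 CPM with 3 of 4 higher. Epithelial markers summed to 105.6 to 131 and 91.68 to 121.1 CPM, with Krt8 and Krt18 not tested, and 1 of 4 was lower, while in the Input they summed to 6.395 to 8.771 CPM in Ctrl and 6.428 to 8.51 CPM in IR. Endothelial markers summed to 33.23 to 52.9 CPM in Ctrl and 69 to 129 CPM in IR, with 4 of 6 higher. Vwf, a clotting factor of endothelium and platelets, had 27.3, 34.3 and 43.82 CPM in Ctrl and 62.1, 89.13 and 118.4 CPM in IR (log2 change 1.31, SE 0.03, adjusted p 2.7e-28), but changed by -0.17 in the Input. The part of such cells in the results was not tested.

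The IP change moved with the length of the transcript. Genes at 5 CPM or more in both library types were split into 5 classes of equal size by the summed length of their exons. In the shortest class (57 to 2662 bases), 61.4% of 1800 genes were lower in the IP and 20.0% were higher. In the longest class (7923 to 123200 bases), 20.2% were lower and 65.1% were higher. The median IP change rose from -0.17 to 0.18 over the 5 classes, while the median Input change went from 0.07 to -0.07. Across 9000 genes the Spearman rho with exon length was 0.35 for the IP, -0.22 for the Input and 0.43 for IP over Input, a description over genes of the same libraries. With GC content the values were 0.04, -0.21 and 0.15. The lists were set beside their median exon length. The cut was the median of all genes tested (3698 bases), not only of those at 5 CPM or more. Of 16 lists with at least 10 tested genes under this cut, 11 had a positive IP median, and of 12 longer lists 5 did. Some lists lay close to it, such as type I interferon-stimulated genes (3695 bases) and immunosuppressive effectors (3703 bases). Replication-dependent histones (734 bases) were low and histone modifiers (11115 bases) were high. The median was 0.43 for CC chemokines (960 bases) and -0.38 for the repair genes (5563.5 bases). The part of length in the lists was not tested.

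**Figure D3:**
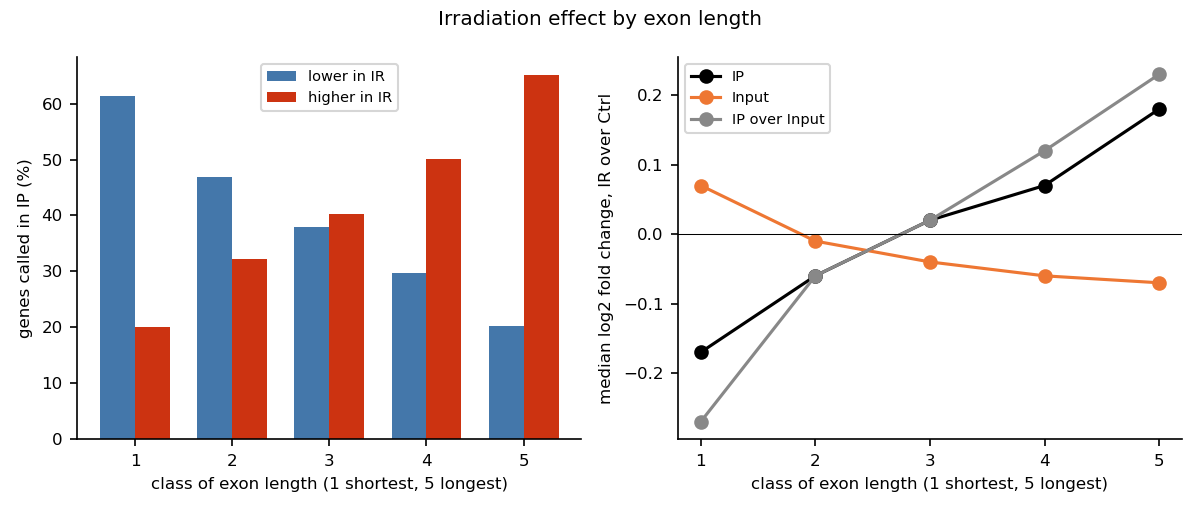
Left, share of genes called lower (blue bars) or higher (red bars) in the m6A IP after IR, in percent, by class of exon length from the shortest (1) to the longest (5). Right, median log2 fold change by class in the IP, in the Input and for IP over Input. The share called lower falls from 61.4% to 20.2%, and the IP median rises from -0.17 to 0.18.

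The IP and Input changes were set beside each other gene by gene. Mitosis genes were lower in both, p53 targets were mostly higher in both, mature neutrophil genes were lower mainly in the Input, and histone modifier genes were mostly higher in the IP while 12 of 20 were lower in the Input. Among genes with at least 5 CPM in both, the largest positive IP over Input change other than that of Mpo belonged to granule genes of neutrophils. Ltf, lactoferrin, had 77.88, 82.88 and 87.66 CPM in the Ctrl IP and 50.16, 57.47 and 73.41 CPM in the IR IP, a change of -0.47, against -4.11 in the Input (IP over Input 3.63, adjusted p 5.3e-34). Abca13, Lrg1 and Cd177 had IP over Input changes of 3.62, 2.88 and 2.38. The largest negative changes were those of Bc1, a short noncoding RNA (-2.77), Mucl1, a secreted mucin-like protein (-2.43), and BC035044 (-1.74). Bc1 varied widely within Ctrl, from 0.9225 to 14.21 CPM, and Ctrl and IR overlapped. Csrp2, a LIM domain protein, fell from 12.36, 14.19 and 15.02 CPM to 8.047, 8.411 and 8.743 CPM in the IP and rose by 0.86 in the Input.

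**Figure D4:**
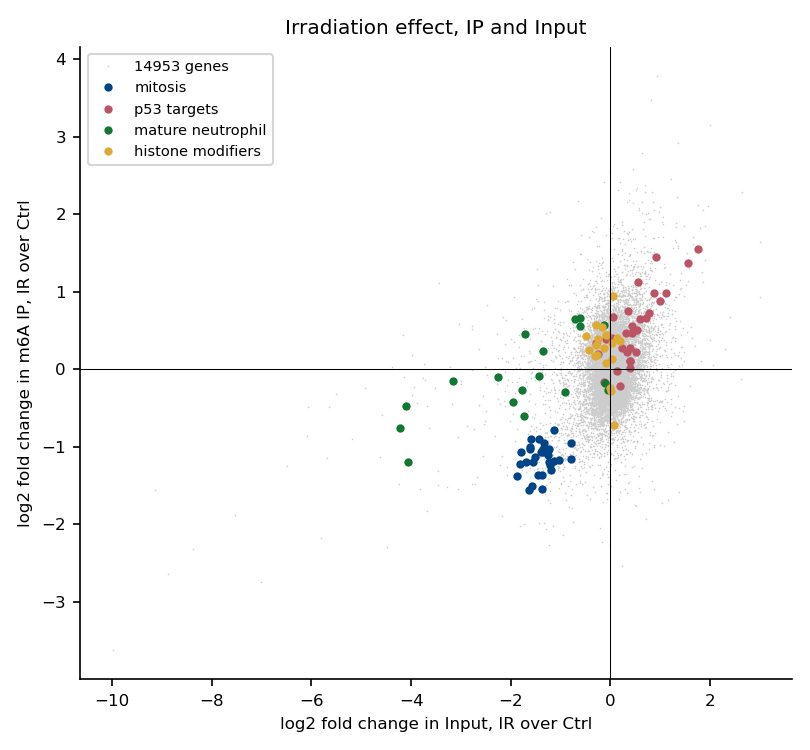
Log2 fold change, IR over Ctrl, in the m6A IP (vertical) against that in the Input (horizontal) for 14953 genes, with the members of 4 lists in colour. Mitosis genes lie in the lower left, p53 targets mostly in the upper right, and mature neutrophil genes far to the left near a vertical value of 0.

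Peak lists gave a separate view of where along transcripts the antibody signal lay. The authors called peaks per library and strand, and the share of peak summits by location was compared between 6 IR and 6 Ctrl libraries by a two-sided exact permutation test, whose smallest possible p is 0.0022, adjusted over 7 locations. Summits in coding sequence made up 50.8% ± 0.616 (SD, n = 6) of peaks in Ctrl and 52.58% ± 0.219 in IR, with no overlap (exact permutation p 0.0022, adjusted 0.0076). In the 3′ UTR the share was 15.35% ± 0.833 in Ctrl and 16.85% ± 0.861 in IR, with overlapping libraries (exact p 0.017, adjusted 0.024). Near stop codons, within 200 bases, it was 16.4% ± 0.319 and 15.44% ± 0.497 (exact p 0.0087, adjusted 0.015). Intronic summits fell from 18.79% ± 0.557 to 16.29% ± 1.17 (exact p 0.0065, adjusted 0.015), and summits in other exons from 8.112% ± 0.124 to 7.111% ± 0.150 (exact p 0.0022, adjusted 0.0076). The shares in 5′ UTRs (3.274% and 3.251%, exact p 0.91) and outside genes (3.678% and 3.908%, exact p 0.41) did not pass.

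The number of peaks per 1M gene counts was 232.0 ± 11.1 (SD, n = 6) in Ctrl and 195.8 ± 33.1 in IR. Adjusted over 5 measures, this difference did not pass (exact permutation p 0.035, adjusted 0.058). The library labelled WT IR replicate 2 stood apart at 253.3, above the other 2 of its group at 200.9 and 208.0, and those labelled cKO IR had 162.5 to 175.9. Without it the difference grew from -36.16 to -47.67 and passed (exact permutation p adjusted 0.0054). Median fold enrichment was 3.4 in Ctrl and 3.298 in IR (exact p 0.022, adjusted 0.054), and median peak width was 224 and 229.5 bases (exact p 0.093, adjusted 0.12). The share of gene counts in the 5893 genes with a consensus summit, found in all 3 libraries of at least 1 group, was 68.01% ± 0.435 in Ctrl and 65.15% ± 1.55 in IR without overlap (exact permutation p 0.0022, adjusted 0.011). Of these genes 5827 were tested, and 52.1% were lower and 29.3% higher in the IP, against 17.2% and 32.2% of the other 10211 genes. Their levels differed too, with a median of 53.6 against 2.41 CPM in the Ctrl IP. The genes were picked by peaks of these same libraries, whose mean number per 1M counts was higher in Ctrl. Neither their share of counts nor their calls are therefore independent of that choice. The m6A context was measured as GGACT, the letters searched on the strand of the peak within 50 bases of the summit. It was in 10.9% of all 189264 summit windows, against 8.6% for its reverse complement and 9.6% and 10.1% for windows 300 bases to either side. Near stop codons the values were 13.6%, 9.5%, 9.5% and 10.2%. At the 33443 intronic summits the letters were less frequent than to either side, at 8.1% against 9.1% and 9.4%, with 6.7% for the reverse complement. The difference by treatment did not pass, at 10.88% ± 0.112 in Ctrl and 11.03% ± 0.352 in IR (SD, n = 6, exact permutation p 0.34, adjusted 0.34).

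**Figure D5:**
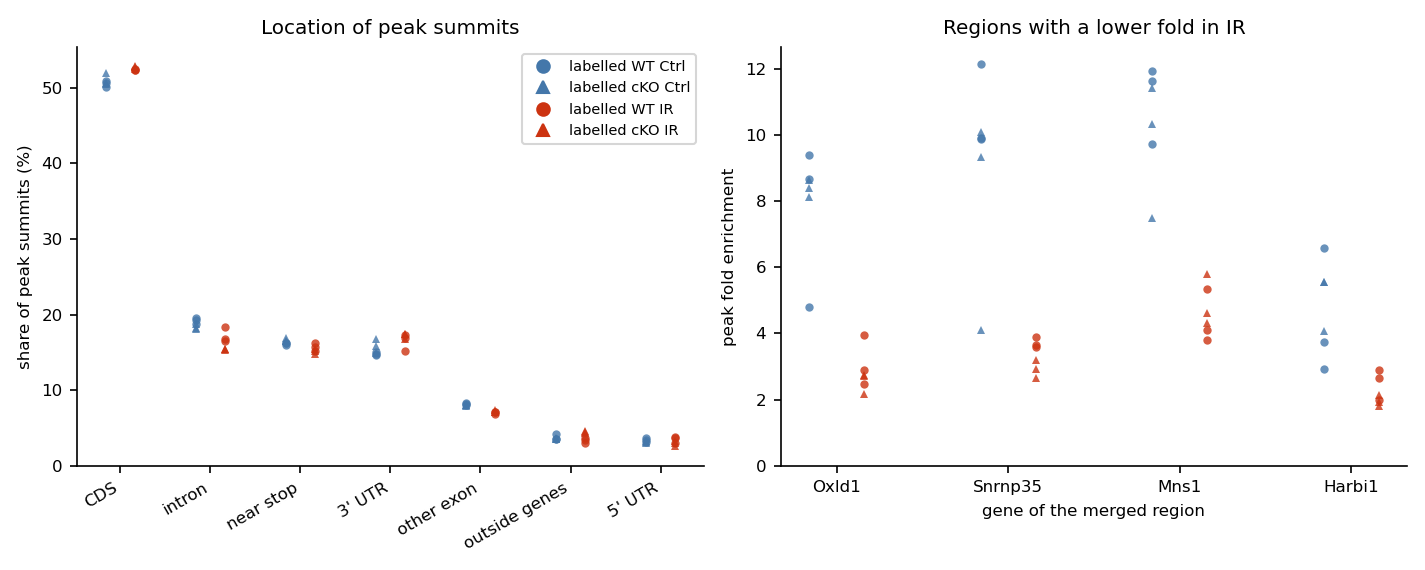
Left, share of peak summits by location in each of the 12 m6A IP libraries, in percent. Right, the authors' fold enrichment at 4 merged peak regions, named by their gene. Points are single libraries, with colour for the treatment and shape for the labelled genotype. The CDS share is 50.09% to 51.92% in Ctrl and 52.35% to 52.9% in IR, and at each of the 4 regions all IR folds lie below all Ctrl folds.

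Merging overlapping peaks of the same strand gave 29975 regions. Of these, 5448 were present in all 12 libraries, and the authors' fold was above in all 6 IR libraries over all 6 Ctrl libraries in 88 (1.62% of the 5448) and below in 146 (2.68%). With folds divided by the median of their library, which was lower in IR, 110 were above and 118 below. A further 66 regions had a peak in all 6 IR libraries and no Ctrl library, and 220 had one in all 6 Ctrl libraries and no IR library. The gene's own IP level was set beside each kind of region. Both come from the same IP reads, so a match in direction was partly built in and is no separate evidence. Of the 2691 tested genes with a region in all 12 libraries, 1488 were lower in the IP and 755 were higher. Of the 53 genes with a gained region, 50 were higher in the IP and 2 were lower (median 0.40), and of 184 tested genes with a lost region, 170 were lower and 2 were higher (median -0.58). Of 115 tested genes with a region below, 106 were lower in the IP and 6 were higher, and of 62 genes with a region above, 40 were higher and 20 were lower. Which Input library served as the control of which IP library is not given in the sources used here. Since Lyz2 in the IR IP libraries went against the genotype labels, a printed IR fold may rest on an Input of the other genotype, which was not tested. A coding region of Ythdf2 was singled out after its values were seen. It had folds of 9.66 to 15.07 in the libraries labelled cKO IR and no peak in those labelled WT IR. In the 6 Ctrl libraries its folds were 3.35 to 8.16. Regions in the 3′ UTR of the gene went the other way, with peaks in the libraries labelled WT, Ctrl and IR, and in none labelled cKO. Their folds in the libraries labelled WT IR were 3.13 to 3.88 and 2.59 to 3.48.

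Regions with large differences in fold or presence, which carry the peak results below, are shown with 30 bases at or near the summit, read 5′ to 3′ on the strand of the transcript from GRCm38. GGACT, where present within 50 bases of the summit, is in capitals. It was present in 2 of the 9 windows.
Oxld1: tttctccagctgGGACTgctgccagagtct
Snrnp35: gacccgcttaaagctggcagcatcgatggt
Mns1: ccactgtcgtgcaggaagaagcagagctga
Harbi1: attctgatacttactgcgctgggaaaaatt
Lrmp: ttatctttgtgtaggagaatcctggggaca
Fkbp5: tgcattctagattgagctccttgatttcaa
Mphosph10: ttttagtcaaataaaagtagcagaaatctg
Acot13: ttgaccttccacacccttgtcctctcacaa
Troap: agctgcccttgttGGACTgtcacaacactc
The first 4 had a lower fold in every IR library than in any Ctrl library, Lrmp and Fkbp5 were gained, and the last 3 were lost.

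Regions that differed in fold often went with falls of the gene in the IP. Mki67, a proliferation marker, had 6 of 10 regions above, although its IP level fell from 1905, 2239 and 2564 CPM to 877.7, 1186 and 1477 CPM (log2 change -0.95) and its Input changed by -1.34. Kif20b, a kinesin of cytokinesis, had 7 of 9 regions below and Mns1, a protein of cilia and flagella, had all 3. The Mns1 region shown (window chr9:72452567-72452596, plus strand) had folds of 7.49, 10.87 and 11.92 in Ctrl and 3.8, 4.48 and 5.81 in IR (lowest, median, highest), with a gene change of -1.28 in the IP. Snrnp35, a protein of the minor spliceosome, had folds of 4.09, 9.9 and 12.14 in Ctrl and 2.64, 3.4 and 3.89 in IR at its region (window chr5:124490159-124490188, plus strand), with an IP change of -0.55 and an Input change of -0.03 that was not called. Oxld1 (window chr11:120457122-120457151, minus strand) had folds of 4.79, 8.52 and 9.38 in Ctrl and 2.17, 2.72 and 3.94 in IR. Its gene level was not called in the IP (-0.05, adjusted p 0.54) and rose by 0.55 in the Input. Harbi1 (window chr2:91712129-91712158, plus strand) had folds of 2.94, 4.8 and 6.57 in Ctrl and 1.82, 2.06 and 2.91 in IR.

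Among gained regions, with a peak in the 6 IR libraries and in no Ctrl library, Lrmp, an endoplasmic reticulum protein of lymphoid and myeloid cells (window chr6:145171970-145171999, plus strand), had folds of 7.16 to 9.86, with an IP change of 0.09 and an Input change of -0.64. Fkbp5, a cochaperone of steroid receptors (window chr17:28428447-28428476, minus strand), was an exception: a region with folds of 4.93 to 6.31 was gained while its IP level changed by -0.21 and its Input level by -0.53. Among lost regions, Mphosph10, a ribosome assembly protein (window chr7:64389000-64389029, minus strand), had folds of 7.92 to 11.48 in Ctrl and an IP change of -0.54 against an Input change of 0.09. Troap, a spindle protein (window chr15:99082287-99082316, plus strand), had 7.02 to 9.65 in Ctrl and an IP change of -1.39. Acot13, a thioesterase (window chr13:24831362-24831391, minus strand), had 4.07 to 14.7 in Ctrl and an IP change of only -0.08.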

How the data were processed

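Reads had been trimmed by the authors (Trimmomatic 0.39), mapped with strand to mm10 by HISAT under GENCODE vM19 and summed over genes by HTSeq. Raw counts, 1 table for each library, were deposited. The authors called peaks with MACS2 per library and strand, and each deposited peak carries a fold over control (a ratio), a score, and its q-value and p-value on the −log10 scale. Tool versions come from the submitters' processing notes, which also list bedtools 2.26.0. Of 54446 identifiers, 54409 matched GENCODE vM21 of GRCm38. Reads in no feature made up 2.97 to 3.73% of the IP libraries and ambiguous reads 2.33 to 2.4%, out of gene counts and these 2 classes. Both stayed out of the fits.

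Genes reaching 10 counts in 3 or more libraries were tested with edgeR 4.0.16 (R 4.3.3) by the quasi-likelihood test with TMM scaling, in 12 IP, 12 Input or all 24 libraries, and called at an adjusted p under 0.05. The study used DESeq2, which served as an alternative (version 1.42.0). The common coefficient of variation was 4.3% in the IP. On simulated data the fits recovered most, not all, of the set 2-fold changes; recovery was lowest for IP over Input, and the pass mark for this check was lowered after that fit had missed the first one. Smaller set changes were recovered less often. Named genes were those called without overlap and at 5 CPM or more with the 12 largest rises and falls, the largest 6 IP over Input changes in each direction, and up to 4 members per list. The members, lists and rules were chosen with earlier results of these data known. An alias of Trp53bp1 with no identifier was dropped from the lists after the data were opened. Some genes and regions that these rules name, among them those with the largest rise in fold, are not reported here. Labels gave no batch or date.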

Additional observations from a re-analysis of the deposited data

Results flagged for a closer look

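In 11 of the named genes and genes of peak regions the IP and the Input moved in opposite directions after irradiation, with no overlap between IR and Ctrl libraries in either. The difference also passed in the contrast of IP over Input (edgeR, all 24 libraries), which adds little once both calls are opposite. Opposite calls were common, whether or not libraries overlapped. Of the 14953 genes tested in both, 1009 were lower in the IP and higher in the Input, and 1602 were the reverse. Csrp2, a LIM domain protein, fell by 0.73 in the IP and rose by 0.86 in the Input, an IP over Input change of -1.60. Csf3r, the G-CSF receptor, rose by 0.66 in the IP and fell by 0.61 in the Input, a change of 1.26. Pecam1, an adhesion molecule of endothelium and leukocytes, rose from 4.208, 4.726 and 5.614 CPM to 6.065, 9.159 and 11.43 CPM in the IP (0.87) and fell by 1.34 in the Input, a change of 2.20. The other 8 had IP over Input changes under 2-fold. They were Taf1d (-0.83), Hnrnpc (-0.68), Usp4 (0.52), Svil (0.56), Lrmp (0.72), Adcy7 (0.77), Csf1r (0.79) and Igf2bp2 (1.0). The first 2 fell in the IP and rose in the Input, and the other 6 rose in the IP and fell in the Input.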

How the results depend on the processing

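The number of genes lower and higher in the IP (4796 and 5002) stayed within 1.5 times under DESeq2 (4732 and 5159), RLE size factors (4686 and 5110), library totals (5461 and 4404), 1 term for treatment (3743 and 3707), a filter of 50 counts (4538 and 4909), no count filter (4754 and 4978) and the fit of 24 libraries (4833 and 4733). Requiring a fold of 2 gave 399 and 393. Leaving out 1 library at a time gave 4589 to 4693 lower and 4879 to 5074 higher in the IP, 3669 to 4119 and 3321 to 3837 in the Input, and 3837 to 4078 and 4263 to 4438 for IP over Input. Of the named genes called in the IP, 1303 of 1312 values under other settings and 1959 of 1968 without 1 library kept direction and call, and none reversed. The exceptions were Acot13, Lrmp, Atp2a3, Lyz2, Rin3 and Ythdf2. For the lists, the filter of 50 counts and no count filter were left aside. Over the other settings the mitosis list kept 32 of 32 lower and the p53 targets 22 to 26 of 30 higher. Counts of small changes moved more: 1 to 10 of 26 negative regulators of NF-kB, 2 to 8 of 10 MHC class II genes and 6 to 16 of 24 cholesterol genes were lower. With 1 term for treatment 4 of 11 CC chemokines and 8 of 26 negative regulators of NF-kB were higher. So were 12 of 32 type I interferon-stimulated genes, 10 of 20 tumour macrophage genes and 6 of 9 markers of CD11b+ cells. In the same setting 10 of 19 immunosuppressive effectors were higher, and 4 of the 11 dendritic cell genes also tested in the Input. The replicate numbers did not pair the IP libraries (correlations of same-numbered libraries -0.134 to 0.2), and a replicate block gave 4782 and 4970 genes in the IP, 3816 and 3503 in the Input and 3963 and 4334 for IP over Input.

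Peaks per 1M gene counts passed with peaks of fold 2 or more (-33.11, exact adjusted p 0.047) and with treatment permuted within the genotype label (-36.16, 0.033), and ranged from -47.67 to -29.49 without 1 library. Median fold passed in the same settings (-0.08682, 0.032, and -0.1016, 0.033) and ranged from -0.1273 to -0.08105, passing without the library labelled WT IR replicate 2, cKO Ctrl replicate 2 or cKO Ctrl replicate 3. Median width ranged from 4.4 to 7.6 bases and passed without the library labelled WT IR replicate 2. Changes of sign without 1 library were seen in genes that had not been called, namely in the Input Gfra1 (-0.13 to 0.44), Psmb10 (-0.02 to 0.06) and Mertk (-0.0 to 0.05), and for IP over Input Il12b (-0.16 to 0.02) and Ly6c2 (-0.06 to 0.0). The cause was not tested.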

Other observations

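Metabolic and antigen presentation genes have not yet been described. Of 26 glycolysis and hypoxia genes, 16 were lower in the IP after IR (29.9% of all genes tested were), 5 were higher and 5 were not called, with a median of -0.15. Egln3, an oxygen-sensing hydroxylase, had 30.27, 35.82 and 38.64 CPM in Ctrl and 17.77, 19.25 and 19.78 CPM in IR (log2 change -0.87, SE 0.04, edgeR adjusted p 1.3e-20), while Pfkfb3, a driver of glycolysis, rose by 0.62. Of 24 cholesterol genes, 15 were lower and 6 were higher, with the sterol exporters Abca1 (0.69) and Abcg1 (0.62) among those that rose. Of 10 MHC class II genes, 7 were lower and 2 were higher, and of 19 MHC class I presentation genes, 7 were lower and 10 were higher. Nlrc5, the transactivator of MHC class I genes, rose by 0.41, and the immunoproteasome subunit Psmb8 fell by 0.36. Interferon-inducible GTPases had 4 of 16 lower and 6 higher, near the shares over all genes tested (29.9% lower, 31.2% higher).

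Of 19 tested immunosuppressive effector genes, 14 were higher in the IP and 3 were lower, with a median of 0.29. Il10 and Nos2 did not reach the count filter in the IP. The Input was evenly split, with 9 of 21 lower and 9 higher. S100a9, a calcium-binding protein, fell by 0.42 in the IP. Cd274, which encodes the checkpoint ligand PD-L1, had 161.9, 175.9 and 181.4 CPM in Ctrl and 230.7, 271.1 and 317.7 CPM in IR (log2 change 0.63, SE 0.02, edgeR adjusted p 3.3e-24), and it rose by 0.37 in the Input. Of 26 immediate early genes, 15 were higher and 8 were lower. Nr4a3, a nuclear receptor, rose by 0.81 and Fos by 0.79, while Myc fell by 0.47. Inflammatory cytokines had 6 of 17 higher and 4 lower, also near those shares. CXC chemokines had 4 of 8 higher and none lower at the adjusted threshold, and chemokine receptors 6 of 11 higher and 1 lower. Csf1, the growth factor of macrophages, rose by 0.55 in the IP, and its Input change of 0.10 was not called.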
